A study of Homo sapiens with 8 samples.

Results

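The genes described here are CRB1 and the other core genes of the Crumbs and PAR complexes, which set the apical side of epithelial cells. They are 10 genes (CRB1, CRB2, CRB3, MPP5, PATJ, PARD3, PARD6A, PARD6B, PRKCI and PRKCZ) of the 59050 gene symbols counted in each tumour. CRB1 was chosen by its rise in the knockout tumours, so its values are a description and carry no test. The other 9 are the textbook members of the same complexes, and MPP5, also written PALS1, was listed under its older symbol. RNA was sequenced from 8 tumours that H2122 cells, an established lung cancer line of human origin, had formed in mice. Of these, 4 grew from parental cells, whose genotype the labels give as WT, and 4 from H2122 cells with a SMARCA4 knockout. All 8 tumours had received vehicle, so no untreated or drug-treated group enters. The sources used here do not say whether the knockout cells were 1 clone or a pool, nor the host strain, and a line of 1 clone could carry differences of its own.

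Crumbs proteins are transmembrane proteins of the apical membrane, and their short cytoplasmic tails carry a site that binds FERM proteins and an end that binds PDZ domains. PALS1 holds that end and joins it to the scaffold PATJ. PARD3, the PARD6 proteins and the atypical protein kinase C isoforms PRKCI and PRKCZ form the partner PAR complex, which is switched by the small GTPase CDC42. CRB1 is best known from photoreceptors and Müller glia of the retina, where its loss causes inherited blindness, whereas CRB3 is the common form of other epithelia, and CRB2 is known from kidney podocytes and early development.

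SMARCA4, the ATPase removed in the knockout, had a level of 221 ± 16.03 CPM (SD, n = 4) in the parental group and 27.3 ± 3.90 CPM (SD, n = 4) in the knockout group. CPM is the usual count relative to the size of the library, here after TMM scaling. Gene counts totalled 19785922 to 23191698 per parental and 20662882 to 21981123 per knockout library. Of 16219 genes tested across both groups, 4385 were called, meaning an adjusted p under 0.05 in edgeR's quasi-likelihood test. As a check of the labelled cell type, the summed level of 6 epithelial markers ran from 4630 to 5513 CPM over the parental group and from 3973 to 5378 CPM over the knockout group, with KRT19 and CLDN4 called lower. Of 4 lung lineage markers, NKX2-1 and SFTPC had 0 counts in all 8 tumours, and the others were read at a low level. The summed level of the 4 ran from 0.893 to 1.24 CPM over the parental group and from 1.03 to 1.51 CPM over the knockout group.

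The start of CRB1 is shown because CRB1 went from near 0 to a measured level, and that of CRB3 because it is the Crumbs gene read in both groups. RefSeq start regions (GRCh38.p14; 250 bases before to 50 after a start) were found for 8 of the 10 genes, in 12 windows; PARD3 and PARD6B had none. The CRB1 window is chr1:197268002-197268301 on the plus strand, with its CG dinucleotides in capitals, and the CRB3 window is chr19:6464021-6464320 on the plus strand, with CACCTG or its reverse complement CAGGTG in capitals.
CRB1: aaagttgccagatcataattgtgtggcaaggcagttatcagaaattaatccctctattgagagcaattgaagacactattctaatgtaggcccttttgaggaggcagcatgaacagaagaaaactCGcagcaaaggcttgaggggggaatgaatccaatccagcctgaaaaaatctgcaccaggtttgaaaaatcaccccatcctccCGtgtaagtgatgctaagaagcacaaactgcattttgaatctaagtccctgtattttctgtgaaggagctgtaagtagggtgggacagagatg
CRB3: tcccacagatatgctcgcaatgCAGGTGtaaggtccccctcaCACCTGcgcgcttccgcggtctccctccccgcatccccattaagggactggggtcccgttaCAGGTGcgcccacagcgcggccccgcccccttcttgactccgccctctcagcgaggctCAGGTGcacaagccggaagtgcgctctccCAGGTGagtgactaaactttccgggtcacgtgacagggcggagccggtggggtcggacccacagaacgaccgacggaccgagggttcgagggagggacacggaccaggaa
The CRB1 window held 2 CG dinucleotides, and 18.2% of the 35097 windows of this length held as few. Its GC content was 43.3%, the lowest of the 12 windows. The CRB3 window held 26 CG dinucleotides and 5 matches to CACCTG or CAGGTG. At least 1 match, on either strand, stood in 20.6% of all windows, and 5 or more in 33 windows (0.0940%). This 6-base word is the E-box that the repressors SNAI1 and ZEB1 are known to bind, and CRB3 is one of their known targets. PATJ's window held 3 matches, 1 PRKCZ window of 4 held 3 and another 1, and PARD6A's held 1. The windows of CRB1, CRB2, MPP5 and PRKCI held none. GGAATG, the word TEAD factors bind, was found once in the CRB1 window and in 14.0% of all windows, counting both strands. TGANTCA, the word AP-1 factors bind, was in none of the 12 windows and in 7.71% of all. In the 2 windows printed no 2 of these matches overlapped, and a match or its absence describes the letters of the window alone.

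CRB1 (ENSG00000134376, chromosome 1, 197268204 to 197478455, plus strand, GRCh38) had 7, 1, 1 and 5 counts in parental tumours 1 to 4, and 206, 211, 198 and 210 counts in knockout tumours 1 to 4. The parental tumours were all near 0 and the knockout tumours all near 200, with no overlap. In CPM the parental tumours were at 0.363, 0.0488, 0.0447 and 0.213, and the knockout tumours at 9.63, 10.3, 9.24 and 9.80. The group means were 0.167 ± 0.152 CPM (SD, n = 4) and 9.74 ± 0.434 CPM (SD, n = 4). The fitted log2 fold change was 5.84 (SE 0.349, 95% interval 5.08 to 6.61). CRB1 was chosen by this value, so the interval is a description and no test. CRB1 also passed the filter on low counts only through the knockout tumours, where it is high. From the pooled 14 and 825 counts the ratio was 59.6, with an exact 95% interval of 35.3 to 110 for counting error only. The size of the ratio turned on the few parental counts: it was 92.3 (44.6 to 230) without parental tumour 1 and 47.4 (27.6 to 89.4) without parental tumour 3.

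Among knockout tumours CRB1 was even, with a coefficient of variation of 4.46%, where counting alone would give 6.96%. Among parental tumours the figures were 90.9% and 53.5%. CRB1 ranked 6 of 16219 genes by log2 fold change, and 5 of the 13053 genes whose average log2 CPM was 1 or more. That rank chose it. Just inside it was TFPI2, an inhibitor of serine proteases, at 6.10 on the log2 scale, and just outside it NTS, the neurotensin precursor, at 5.52. The exons of CRB1 share 369 bases (2.90% of their length) with the antisense gene AL136322.1, which had 0 counts in the parental tumours and 28 in the knockout tumours (7, 6, 5 and 10). With 3 counts assumed over the parental group in place of 0, the ratio of knockout to parental was 9.44. That ratio leaves out the counting error of the 28 counts and is not a lower limit. The exact interval of the ratio of parental to knockout reached up to 0.139. The strand setting of the counting is not given in the sources used here. It is therefore not known whether reads in the shared stretch went to CRB1, to its antisense partner or to neither. In bulk tumours, fewer cells with a transcript and less of it per cell cannot be told apart.

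**Figure D1:**
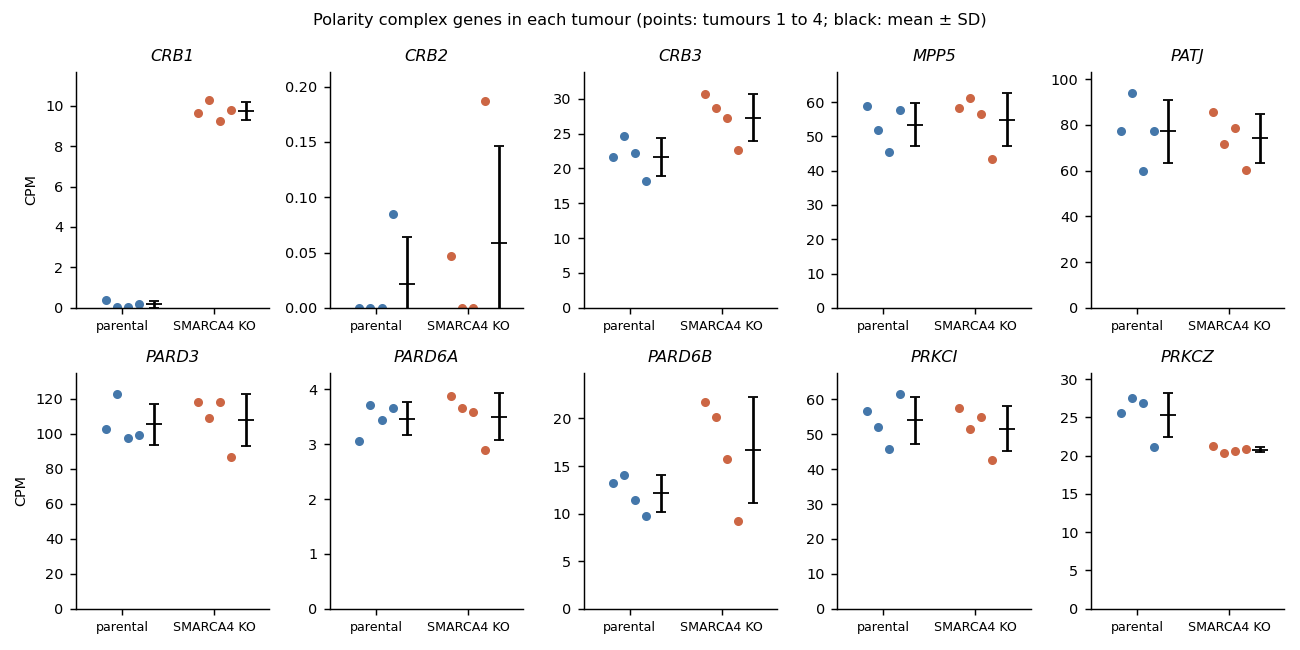
Level of each of the 10 polarity complex genes in each tumour, in CPM on a linear axis from 0; points are tumours 1 to 4 of a group and the black mark is the mean ± SD (n = 4). CRB1 separated the groups (0.0447 to 0.363 against 9.24 to 10.3 CPM), and the groups overlapped in the other 9 genes.

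CRB2 (chromosome 9), the second Crumbs gene, had 0, 0, 0 and 2 counts in parental and 1, 0, 0 and 4 in knockout tumours, too few to test. The pooled ratio of knockout to parental was 2.53 with an exact 95% interval of 0.414 to 26.5, so neither a rise nor a fall was detectable at this depth. Its exons also share 362 bases (5.70%) with DENND1A on the other strand.

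CRB3 (chromosome 19, 6463777 to 6467221), the short Crumbs protein of most epithelia, was read in every tumour. It was at 21.6, 24.6, 22.2 and 18.2 CPM in parental tumours 1 to 4 and at 30.7, 28.7, 27.2 and 22.6 CPM in knockout tumours 1 to 4. Knockout tumours 1 to 3 lay above all parental tumours, and knockout tumour 4 lay inside the parental range. The log2 fold change was 0.34 (SE 0.123, 95% interval 0.07 to 0.61), and the edgeR adjusted p was 0.0649. CRB3 was therefore not called. The edgeR adjusted p was 0.0378 without parental tumour 2, 0.0249 without knockout tumour 4 and 0.0417 with upper-quartile scaling, so the call depended on these choices.

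Per kilobase of exon, CRB1 made up 0.101% ± 0.0920 (SD, n = 4) of the summed level of the 3 Crumbs genes in parental tumours. In knockout tumours its share was 4.32% ± 0.580 (SD, n = 4), with a range of 3.78% to 5.13%, against a parental range of 0.0248% to 0.210%. CRB1 was chosen by its rise in this contrast, so the gap between these ranges follows from that choice and is a description only. CRB3 made up nearly all of the rest in both groups. The summed Crumbs level was 13.6 ± 1.66 CPM per kb (SD, n = 4) in the parental group and 17.9 ± 2.13 CPM per kb (SD, n = 4) in the knockout group. Because CRB1 has 12.7 kb of annotated exon and CRB3 1.59 kb, the share of plain counts was larger, at 0.800% and 26.4%.

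The scaffolds that hold Crumbs tails differed between the groups by less than the spread between tumours. MPP5 (chromosome 14) had 58.9, 51.9, 45.5 and 57.7 CPM in parental tumours 1 to 4 and 58.2, 61.3, 56.7 and 43.5 CPM in knockout tumours 1 to 4, and the lowest value of all was a knockout tumour. Its log2 fold change was 0.04 (95% interval -0.23 to 0.31, edgeR adjusted p = 0.851). PATJ (chromosome 1), which carries many PDZ domains and binds PALS1, had 77.2, 93.8, 59.9 and 77.5 CPM in the parental and 85.8, 71.7, 78.4 and 60.3 CPM in the knockout tumours. The ranges of PATJ almost coincided, and its log2 fold change was -0.06 (95% interval -0.37 to 0.25, edgeR adjusted p = 0.804). These intervals leave room for modest changes in either direction, so equal levels were not shown.

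In the PAR complex, the scaffold PARD3 (chromosome 10) had 103, 123, 97.4 and 99.2 CPM in the parental tumours and 118, 109, 118 and 86.8 CPM in the knockout tumours. Parental tumour 2 was the highest and knockout tumour 4 the lowest of the 8. The log2 fold change of PARD3 was 0.04 (95% interval -0.22 to 0.29, edgeR adjusted p = 0.856). PARD6A (chromosome 16), an adaptor that binds CDC42 and atypical protein kinase C, was low in both groups, at 3.47 ± 0.298 and 3.51 ± 0.425 CPM (SD, n = 4 each), with a log2 fold change of 0.02 (95% interval -0.35 to 0.38).

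PARD6B (chromosome 20), a second such adaptor, was the most uneven of the tested members in knockout tumours. It was at 13.3, 14.1, 11.5 and 9.74 CPM in parental tumours and at 21.7, 20.2, 15.8 and 9.24 CPM in knockout tumours 1 to 4. Knockout tumours 1 to 3 lay above all parental tumours and knockout tumour 4 below all of them. The log2 fold change was 0.46 (SE 0.231, 95% interval -0.04 to 0.97), and the edgeR adjusted p of 0.168 did not pass. Without knockout tumour 4 the log2 fold change was 0.67, with an edgeR adjusted p of 0.0127.

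The atypical kinases differed in their spread. PRKCI (chromosome 3) had 56.6, 52.1, 45.6 and 61.6 CPM in the parental tumours and 57.4, 51.6, 54.9 and 42.5 CPM in the knockout tumours. The groups overlapped throughout (log2 fold change -0.06, 95% interval -0.32 to 0.20, edgeR adjusted p = 0.733). PRKCZ (chromosome 1) had 25.5, 27.5, 26.9 and 21.2 CPM in the parental tumours and 21.2, 20.4, 20.6 and 20.9 CPM in the knockout tumours. Parental tumours 1 to 3 stood above all knockout tumours, and parental tumour 4 lay just below knockout tumour 1. The coefficient of variation of PRKCZ over knockout tumours was 1.73%, where counting alone would give 4.77%. Its log2 fold change was -0.28 (SE 0.101, 95% interval -0.50 to -0.06), with an edgeR adjusted p of 0.0596. Without parental tumour 4 the edgeR adjusted p was 0.0102. DESeq2 gave an adjusted p of 0.0373, and edgeR on library totals alone 0.0484, so the call of PRKCZ depended on the test and the scaling. PRKCZ shares exon bases with FAAP20 (590 bases, 7.73%), AL590822.2 (266 bases) and PRKCZ-AS1 (83 bases) on the other strand.

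Of the 9 members other than CRB1, 8 were tested, and edgeR called 0 of them, beside 27% of all genes tested. At an unadjusted edgeR p under 0.05 there were 2 of the 8 (CRB3 and PRKCZ), beside 6170 of all 16219 genes tested. DESeq2 called 1 (PRKCZ) and limma-voom 0. Their median log2 fold change was 0.03, that of all genes tested 0.00345. The groups did not overlap in 0 of the 8, beside 29.3% of all genes tested. CRB1 was chosen from this same contrast, so nothing is read from these counts about the set. Knockout tumour 4 was the lowest of its group in 7 of the 8 (all but PRKCZ), and knockout tumour 1 the highest in 7 (all but MPP5). Parental tumour 2 was the highest of its group in 6. The same counts were not made over all genes tested, so nothing is read from them about the members. Knockout tumour 4 also had the largest share of reads in no annotated feature among the 8 libraries (10.4%, against 6.08% to 8.76% in the others); the part of this in its low values was not tested.

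Levels of different genes were compared per kilobase of annotated exon. In parental tumours the mean levels ran from PARD3 (16.2 CPM per kb) and CRB3 (13.6) over PRKCI (9.24), PATJ (6.43) and MPP5 (6.12) to PRKCZ (3.31), PARD6B (2.57) and PARD6A (2.33). CRB1 (0.0131) and CRB2 (0.00335) closed the order. PARD3 overlapped CRB3, PRKCI overlapped PATJ, PATJ overlapped MPP5, PRKCZ overlapped PARD6B, PARD6B overlapped PARD6A and CRB1 overlapped CRB2, while gaps lay below CRB3, MPP5 and PARD6A. In knockout tumours CRB3 (17.2 CPM per kb) and PARD3 (16.6) led and overlapped, followed by PRKCI (8.84), MPP5 (6.28), PATJ (6.18), PARD6B (3.54), PRKCZ (2.72) and PARD6A (2.36). Among knockout tumours CRB1 stood at 0.766 CPM per kb, clear of CRB2 (0.00919) below and of PARD6A above. CRB1 thus kept its place as the ninth of the 10 genes in both groups. With the longest annotated transcript as the length, a choice made after the data were seen, 6 of the 10 genes held their place in both orders, CRB1 and CRB3 among them. In parental tumours PRKCZ moved from the sixth place to the fourth and PATJ from the fourth to the sixth.

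**Figure D2:**
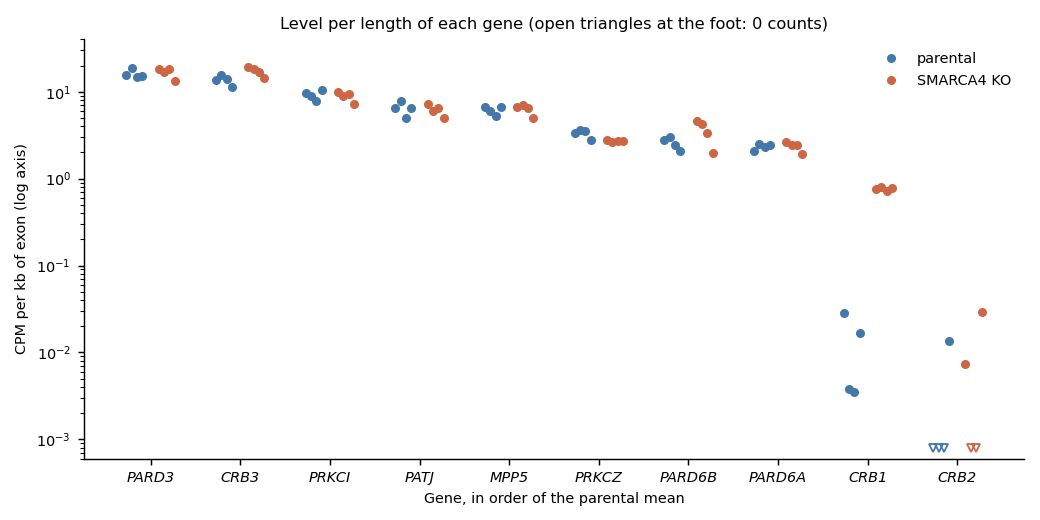
Level of each gene in CPM per kilobase of exon on a log axis, by tumour and group, ordered by the parental mean; open triangles at the foot mark tumours with 0 counts. CRB1 moved from 0.0131 to 0.766 CPM per kb on average and stayed below PARD6A (2.33 and 2.36 CPM per kb).

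Beyond the core complexes, 65 other polarity genes in 6 lists were followed, of which 63 were tested. LIN7A, a small PDZ scaffold, and PROM1, a protein of apical protrusions, had too few counts. Of the 63 tested, 24 were called (38.1%), 6 higher and 18 lower, beside 13% of all genes called higher and 14.1% called lower. AMOT and VIL1 passed the filter on low counts only through the parental tumours, where they are high, so their calls carry no weight. Without them 22 of 61 were called (36.1%), 6 higher and 16 lower, with a median log2 fold change of -0.09. Over the whole list, AMOT and VIL1 included, 4 genes were called higher and 19 lower without parental tumour 1, knockout tumour 1 or knockout tumour 3. The 19 also hold PROM1, which had 127 parental and 4 knockout counts, so that call carries no weight either.

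Among partners of the Crumbs and PALS scaffolds, 4 of 10 were called (40%, beside 27% of all genes tested), 3 higher and 1 (AMOT) lower. AMOT is among the 4, and its call carries no weight, since it passed the filter only through the parental tumours. AMOT, angiomotin, an inhibitor of YAP that binds PATJ, had 31, 34, 66 and 67 counts in parental tumours and 1, 1, 0 and 1 in knockout tumours. The pooled 198 and 3 counts gave a ratio of parental to knockout of 65.3, with an exact 95% interval of 22.0 to 319. Its relatives AMOTL1 (90.3 ± 14.5 to 143 ± 18.5 CPM; SD, n = 4 each) and AMOTL2 (54.4 ± 3.08 to 70.0 ± 11.2 CPM; SD, n = 4 each) rose, with log2 fold changes of 0.66 (edgeR adjusted p = 0.00279) and 0.37 (edgeR adjusted p = 0.0330). AMOTL2 lost its call without parental tumour 1 or 3 and without knockout tumour 1 or 3, with edgeR adjusted p from 0.0695 to 0.105. MPP3, a scaffold of the PALS1 family, rose from 16.4 ± 2.62 to 32.2 ± 4.35 CPM (SD, n = 4 each; log2 fold change 0.97, edgeR adjusted p = 0.000319). The other 6 tested, among them LIN7C and MPP7, were not called.

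Among partners of the PAR complex, 3 of 13 were called (23.1%, beside 27% of all genes tested, median -0.0036). PTPN13, a PDZ phosphatase, fell from 29.2 ± 11.8 to 8.69 ± 0.987 CPM (SD, n = 4 each; log2 fold change -1.75, edgeR adjusted p = 0.000270). ARHGAP17, which switches CDC42 off and binds angiomotin, fell by 0.34 on the log2 scale, and ARHGEF18, a guanine nucleotide exchange factor, rose by 0.35. The edgeR call of ARHGEF18 (adjusted p = 0.0293) was lost without parental tumour 1, 3 or 4 and without knockout tumour 1 or 3, with adjusted p from 0.0598 to 0.0950. CDC42 itself had levels of 224 ± 20.2 CPM (SD, n = 4) in the parental group and 195 ± 8.71 CPM (SD, n = 4) in the knockout group. Its log2 fold change of -0.20 was not called (edgeR adjusted p = 0.111), although the groups did not overlap.

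The Scribble module, which sets the basolateral side, had 8 of 12 genes called (66.7%, beside 27% of all genes tested). Of the 8, 7 were lower and 1 higher, and the median of the 12 was -0.45. SCRIB, its scaffold, fell from 154 ± 12.4 to 112 ± 8.20 CPM (SD, n = 4 each; log2 fold change -0.47, edgeR adjusted p = 0.00253). DLG3 (log2 fold change -0.71), LLGL1 (-0.51) and LRRC1 (-0.48) fell as well. The groups did not overlap in any of these, nor in 29.3% of all genes tested. LLGL2, the second Lgl gene and a known epithelial form, rose from 193 ± 23.6 to 258 ± 33.4 CPM (SD, n = 4 each; log2 fold change 0.42, edgeR adjusted p = 0.0205). That call was lost without knockout tumour 4 (edgeR adjusted p = 0.0510). DLG5, ERBIN and VANGL2 were the other 3 called lower. The 4 not called were DLG1 (log2 fold change 0.04), DLG2 (0.09), DLG4 (0.27) and VANGL1 (-0.25).

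In the group of PAR1 and PAR4 kinases, PAR5 adaptors and their partners, 1 of 9 was called (11.1%, beside 27% of all genes tested, median -0.12). MARK2, a PAR1 kinase of the basolateral side, fell from 87.9 ± 0.948 to 68.7 ± 4.14 CPM (SD, n = 4 each; log2 fold change -0.35, edgeR adjusted p = 0.00452). Among FERM and KIBRA proteins, which bind or oppose Crumbs, 2 of 10 were called (20%, beside 27% of all genes tested, median 0.03). EPB41L4A fell from 27.9 ± 6.02 to 10.9 ± 2.96 CPM (SD, n = 4 each; log2 fold change -1.36, edgeR adjusted p = 0.000774), and MSN, moesin, a linker of membrane to actin, rose by 0.55 on the log2 scale (edgeR adjusted p = 0.00311). EPB41L5, the human relative of the fly Crumbs antagonist Yurt, was at 28.1 ± 0.892 and 23.7 ± 1.65 CPM (SD, n = 4 each) and was not called (log2 fold change -0.24, edgeR adjusted p = 0.0589). EZR, ezrin, the linker of microvilli, was not called either (log2 fold change -0.06, 95% interval -0.26 to 0.14).

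Of the genes of the apical membrane, 6 of 9 tested were called (66.7%, beside 27% of all genes tested), all 6 lower. VIL1 is among the 6, and its call carries no weight. VIL1, villin, the actin bundler of microvilli, had 125, 183, 178 and 162 counts in parental tumours and 10, 10, 6 and 9 counts in knockout tumours. The pooled ratio of parental to knockout for VIL1 was 18.3 (exact 95% interval 13.0 to 26.5). SLC9A3R1, which ties membrane proteins to ezrin, fell from 93.9 ± 12.4 to 45.8 ± 3.53 CPM, and its relative SLC9A3R2 from 88.5 ± 7.11 to 47.6 ± 2.90 CPM (SD, n = 4 each; log2 fold changes -1.03 and -0.90, edgeR adjusted p = 4.16e-05 and 2.70e-05). MYO5B, RAB11A and SYTL4, of the apical delivery route, were the other 3 called lower. PODXL (log2 fold change 0.06), RAB11FIP5 (0.07) and RAB8A (-0.09) were the 3 tested genes not called. PROM1, too sparse to pass the filter, had 8, 17, 77 and 25 counts in parental and 0, 1, 2 and 1 in knockout tumours.

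**Figure D3:**
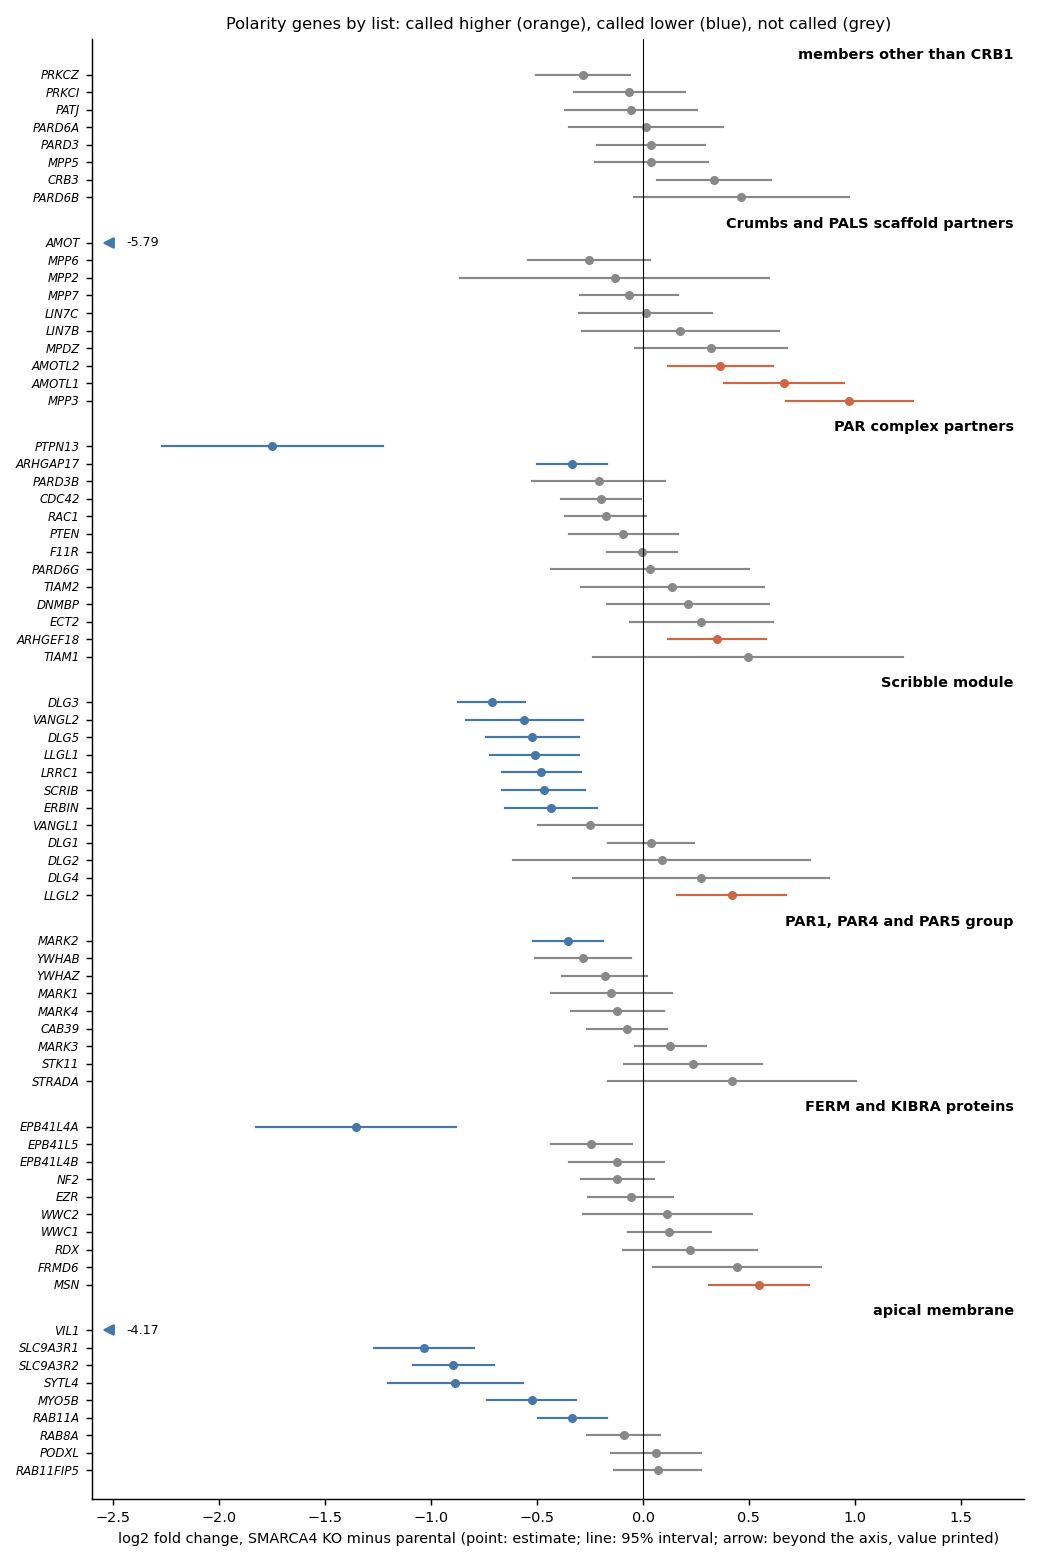
Log2 fold change, knockout minus parental, with its 95% interval for the 8 tested complex genes other than CRB1 and the 63 tested genes of the 6 lists; orange was called higher, blue called lower and grey not called, and arrows mark AMOT and VIL1 beyond the axis. None of the 8 complex genes was called, beside 27% of all genes tested. Called lower were 7 of 12 genes of the Scribble module and 6 of 9 of the apical membrane, beside 14.1% of all genes tested. The 6 include VIL1, which, like AMOT, passed the filter only through the parental tumours, so its call carries no weight.

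The genes around CRB1 were read for the same contrast. The nearest tested gene, DENND1B, lies 26.3 kb beyond CRB1 with its 3′ end nearest and was at 27.5 ± 2.16 and 27.0 ± 2.81 CPM (SD, n = 4 each; log2 fold change -0.02, 95% interval -0.25 to 0.20). ZBTB41, 67.7 kb away on the other side, had a log2 fold change of -0.06 and ASPM, a spindle protein gene 121 kb away, of -0.10, and neither was called. Of the 5 nearest tested genes on each side, 9 are given here. LINC00862, a non-coding RNA 2775 kb away, rose from 1.58 ± 0.392 to 3.39 ± 0.936 CPM (SD, n = 4 each; log2 fold change 1.10, edgeR adjusted p = 0.00845). CFHR3, CDC73, C1orf53, NEK7 and PTPRC were not called.

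**Figure D4:**
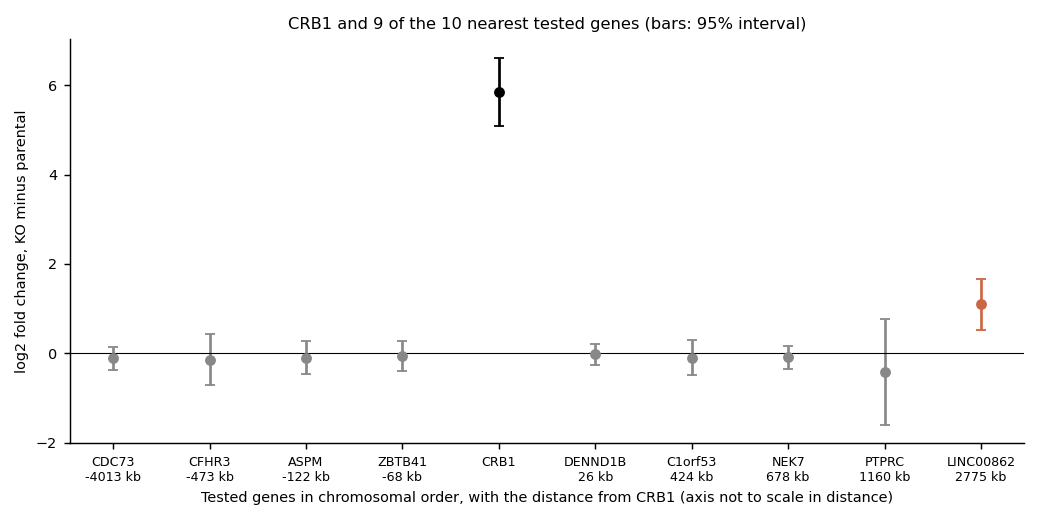
Log2 fold change with its 95% interval for CRB1 (black) and 9 of the 10 nearest tested genes, in chromosomal order with the distance from CRB1 in kb; orange was called higher and grey not called. CRB1 stood at 5.84, and its immediate neighbours ZBTB41 and DENND1B at -0.06 and -0.02. CRB1 was chosen by this value, so its interval is a description and no test.

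The pattern of CRB1 over the 8 tumours was compared with 13052 other genes by Pearson's r of log2 CPM. Of the 5 most alike, 4 were HYAL1, a hyaluronidase (r = 0.997), PRXL2C (0.994), EGFL7, a secreted protein with EGF-like domains (0.991), and LRRN2, a leucine-rich repeat membrane protein (0.991). Their log2 fold changes were 1.47, 0.78, 1.03 and 1.29. The 8 points form 2 groups, so r is mostly the distance between these groups. Taking each group's mean away, r with CRB1 was 0.757 to 0.937 for these 4, over tumours that share library and depth. These genes were picked by r over the same 8 tumours, so this agreement follows in part from the choice. Among knockout tumours CRB1 varied no more than counting alone would give, and its parental values rest on 1 to 7 counts. By Spearman's rank correlation 0 of the 5 stayed among the first 5. Of the other polarity complex genes, CRB3 had the highest r with CRB1 (0.66), and after the group means were taken away it was -0.39.

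Markers of the cell types in which CRB1 is best known were read in the same tumours. Of 8 photoreceptor markers, RCVRN had 0 counts in all 8 tumours, and the summed level ran from 2.08 to 3.57 CPM over the parental group and from 3.31 to 3.46 CPM over the knockout group, most of it NRL (2.38 and 2.74 CPM). Of 5 Müller glia markers, RLBP1 and RAX had 0 counts in all 8 tumours. The summed level ran from 628 to 940 CPM and from 506 to 645 CPM in the same order, nearly all from GLUL, an enzyme of many tissues that was called lower. For cells of the tumour bed, the summed level of 6 fibroblast markers ran from 179 to 607 CPM over the parental group and from 343 to 603 CPM over the knockout group. For 5 endothelial markers it was 7.51 to 17.7 and 8.50 to 15.4 CPM. For 8 leukocyte markers it was 7.19 to 71.3 and 12.04 to 29.4 CPM, and for 5 skeletal muscle markers 0.134 to 14.99 and 0.0975 to 10.4 CPM. All 4 of these sums overlapped between the groups. LUM, a matrix proteoglycan, had 33 counts over the parental and 1053 over the knockout tumours, and VWF, an endothelial protein, 172 and 32. LUM was the only 1 of 4 tested fibroblast markers called, and VWF the only 1 of 2 tested endothelial markers. The other tested markers of these lists were not called, so LUM and VWF do not stand for their cell types. The part of other cell types in the level of CRB1 was not tested.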

How the data were processed

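RNA-seq libraries of 8 xenograft tumours were compared, 4 parental and 4 SMARCA4 knockout, grouped by the title of each sample. The deposited values are raw counts per gene symbol, 1 file per tumour; per the submitters' processing notes, TopHat2 2.1.1, HTSeq 0.11.0 and hg38 were used. The annotation, the strand setting and any removal of mouse reads are not given in the sources used here, so host reads that resemble human transcripts may be counted. Lines that name no gene (14.8% to 20.9% of reads) were left out of library sizes. Every pair of libraries differed by more than sampling noise (chi-square per degree of freedom at least 8.21). Nothing says that the tumours came from separate cell cultures, so p-values measure the spread between tumours.

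Counts were fitted with edgeR 4.0.16 in R 4.3.3 (filterByExpr with a minimum count of 10 and a minimum total of 15, TMM scaling, quasi-likelihood F-test, no covariate). The Benjamini-Hochberg adjustment ran over all 16219 genes tested. Intervals of pooled counts are exact binomial at 95% and cover counting error only, since reads are not independent molecules. Exon lengths and positions come from GENCODE 29 on GRCh38. The steps were tested on simulated data. Alternatives were DESeq2 1.42.0, limma-voom (limma 3.58.1), 3 other scalings, 2 other filters, a replicate block and leaving out each tumour. The members and lists were chosen with earlier results of these data known. Named were all 10 members, up to 3 called genes of smallest p in each list, CDC42, SCRIB, LLGL2, EPB41L5 and EZR, the 5 nearest tested genes on each side of CRB1, the 5 genes most like CRB1 and SMARCA4. AMOTL2, PROM1, LIN7A, LIN7C, MPP7, DLG5, ERBIN, VANGL2, MYO5B, RAB11A, SYTL4, TFPI2 and NTS were named after their values were seen. So were PODXL, RAB11FIP5, RAB8A, DLG1, DLG2, DLG4 and VANGL1. Some genes of this rule and of the marker lists are not reported here.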

Additional observations from a re-analysis of the deposited data

Results flagged for a closer look

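In 6 of 104 sets of 4 tumours, the extreme value stood far from the other 3; chance alone flags about 5% of sets, and 5.77% were flagged. CRB2 was at 0.085 CPM in parental tumour 4, from 2 counts, and at 0 in the other parental tumours. AMOT was at 0 CPM in knockout tumour 3 and at 0.0467 to 0.0488 CPM, 1 count each, in the other knockout tumours. ARHGEF18 was at 40.9 CPM in parental tumour 2 and at 35.9 to 36.3 CPM in the other parental tumours. CDC42 was at 254 CPM in parental tumour 4 and at 212 to 217 CPM in the other parental tumours. RAB11A was at 295 CPM in parental tumour 4 and at 266 to 270 CPM in the other parental tumours, and at 226 CPM in knockout tumour 3 and at 215 to 216 CPM in the other knockout tumours.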

How the results depend on the processing

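Genes called over the whole table stayed within 1.5 times of 4385 in each alternative (3501 to 5028). The 24 other polarity genes called did so too (21 to 27). Of these, those called higher, 6, ran from 3 with the replicate block to 8 without parental tumour 2, against 18 to 21 called lower. AMOT and VIL1 were counted as lower in every setting, and PROM1 in some. The count of complex genes called other than CRB1 was 1 with DESeq2 (PRKCZ), 1 with upper-quartile scaling (CRB3), 1 with library totals alone (PRKCZ) and 1 with the replicate block (CRB3), and 0 to 2 with 1 tumour left out. The log2 fold change of CRB1 was 5.52 to 6.45 with 1 tumour left out and 5.82 to 6.07 in the other alternatives. The CRB1 share of Crumbs reads in knockout tumours, 4.32%, was 26.4% without division by length and 5.45% with the longest transcript as the length, and 6 of 10 genes held their place per length with that choice, both added after the data were seen. Of the 5 genes most like CRB1, 4 stayed with a prior count of 0.5 and 0 by Spearman's rank correlation. Small fold changes that were not called changed sign: PARD6A was -0.004 with DESeq2, -0.006 with library totals alone and -0.005 without the filter, and DENND1B 0.013 with upper-quartile scaling. With 1 tumour left out, the log2 fold change ran from -0.035 to 0.138 for MPP5, -0.164 to 0.049 for PATJ, -0.009 to 0.130 for PARD3, -0.046 to 0.1 for PARD6A, -0.140 to 0.021 for PRKCI, -0.156 to 0.058 for ZBTB41, -0.234 to 0.069 for ASPM, -0.074 to 0.048 for DENND1B and -0.728 to 0.364 for PTPRC.

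Replicate numbers did not pair the tumours: same-numbered tumours correlated at -0.187 to 0.086 in their deviations from the group means, and 0 of 4 parental tumours correlated best with its own number. The replicate block gave 3871 genes called, 21 other polarity genes and a CRB1 log2 fold change of 5.86; CRB3 passed (adjusted p = 0.0431), and ARHGEF18 (0.0703), LLGL2 (0.0604) and AMOTL2 (0.0762) did not.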
